A study of Mus musculus with 6 samples.

Results

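In the naïve Tbx18-tdT+ library, 246 of 686 cells carried the number 6 in the clustering that was deposited for both naïve libraries together, which is 35.9% of the library (95% exact interval 32.3% to 39.6%). These 246 cells are described here. The series holds 17033 cells in 6 libraries. The cells were chosen by their deposited cluster number and their library, and no expression value was used again to pick them. The cluster number itself was made from expression, so differences in level between cluster 6 and other clusters are described and not tested.

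The library came from cerebral cortex of Tbx18-CreERT2/Ai14-flx mice aged 3 to 4 months that had received tamoxifen and had no injury (naïve). Tamoxifen activates Cre recombinase in cells in which the Tbx18 promoter is on, after which these cells and their progeny make the red protein tdTomato (tdT), and live tdT+/DAPI- cells of several pooled animals were sorted into 1 library. The naïve NG2-tdT+ library was made in the same way from NG2-Cre-ERT2/Ai14-flx mice of the same age, in which Cre follows the promoter of Cspg4, the gene of NG2. In the injured Tbx18-tdT+ libraries, tamoxifen was given 7 days before an injection of saline (physical injury) or of ET-1/L-NAME (ischemic injury) into the brain, 3 days before the cells were collected. Each group has 1 library, so there is no replicate, no test was made, and the intervals below cover counting error only.

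The wall of a brain microvessel is built from 3 neighbouring cell types. Endothelial cells line the lumen and form the blood-brain barrier, pericytes sit on capillaries inside the same basement membrane, and smooth muscle cells wrap arterioles and contract. Each type has its own transcripts, among them Cldn5 for the tight junctions of endothelial cells, Vtn for a matrix protein that brain pericytes secrete, and Acta2 for the actin of the contractile apparatus of smooth muscle.

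The cells of cluster 6 held transcripts of all 3 cell types. Vtn was at 7176 counts per 1000000 UMIs (CPM; exact Poisson interval 6922 to 7437), Acta2 at 3062 CPM (2897 to 3234) and Cldn5 at 856 CPM (770 to 949). Counts were summed over the 246 cells, which have 420576 UMIs (unique molecular identifiers, each standing for 1 captured transcript) in all. The clusters set beside it came from the same library. They are cluster 0 (66 cells, 370452 UMIs), in which a list of pericyte genes was the highest of 3 vascular lists, cluster 4 (47 cells, 406016 UMIs), in which the smooth muscle list was the highest, and cluster 10 (63 cells, 455338 UMIs), in which the endothelial list was the highest. The CPM of Vtn in clusters 0, 4 and 10 were 13859, 909 and 200. Acta2 was at 99.9, 9374 and 79.1 CPM in clusters 0, 4 and 10. Cldn5 was at 24.3, 12.3 and 3804 CPM in the same order. Each of these genes was thus high in 1 of the comparison clusters and low in the others, and cluster 6 stood between the extremes for all 3.

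The other marker genes of these cells followed 2 different patterns. Ly6c1, a surface protein gene of brain endothelium, reached 1027 CPM (933 to 1129) here, beside 13.5, 17.2 and 2589 CPM in clusters 0, 4 and 10, which is the pattern of Cldn5. Its near-identical neighbour Ly6c2 had 1 count in cluster 6, and reads that both genes share could not be assigned. Hbb-bs, a beta-globin gene of red blood cells, reached 264 CPM (217 to 318), from 111 counts in 53 cells, beside 5.40, 0 and 4.39 CPM in clusters 0, 4 and 10. Clu, the gene of the secreted chaperone clusterin, had 30 counts in 25 cells of cluster 6 (71.3 CPM, 48.1 to 102) and no count in any of these 3 clusters. Cluster 13 of the same library, with 19 cells, had 29 counts of Clu (175 CPM). Globin and clusterin transcripts were therefore higher in cluster 6 than in clusters 0, 4 and 10, clusterin being higher still in cluster 13, while the endothelial genes were lower than in cluster 10.

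Transcripts of the driver genes of both lineage lines were found at low levels. Tbx18, a transcription factor gene of mural cells, had 33 counts in cluster 6, which is 78.5 CPM (54 to 110), beside 121, 96.1 and 2.20 CPM in clusters 0, 4 and 10. Cspg4 had 150 counts, or 357 CPM (302 to 419), beside 705, 320 and 4.39 CPM. Both drivers were thus above cluster 10, and Cspg4 was below cluster 0. The marker genes lie on separate chromosomes of the GRCm38 (mm10) genome: Vtn on chromosome 11 (78499091 to 78502324), Cldn5 on chromosome 16 (18776847 to 18778262) and Acta2 on chromosome 19 (34241090 to 34255590). Ly6c1 lies on chromosome 15 (75044018 to 75048830), Clu on chromosome 14 (65968483 to 65981547) and Hbb-bs on chromosome 7 (103826534 to 103828096). These are whole gene bodies in GENCODE M21, which may differ from the authors' annotation, and the 3' chemistry of the libraries reads mainly the ends of the transcripts.

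The cells of cluster 6 were shallow and alike in depth. Their median was 1647 UMIs (quartiles 1438 and 1986, range 496 to 8007), against 5462, 9362 and 6996 UMIs in clusters 0, 4 and 10 and 6021 in all 440 other cells of the library. The upper quartile was 1.38 times the lower one in cluster 6 and 2.95 times in the other cells. Of the 266 cells of the library with 1000 to 2500 UMIs, 192 (72.2%, 66.4% to 77.5%) were in cluster 6, whereas of the 363 cells with more than 2500 UMIs only 18 were. Cluster number and depth therefore go together in this library, and the part of depth in the results below was not tested beyond the comparisons at matched depth.

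**Figure D1:**
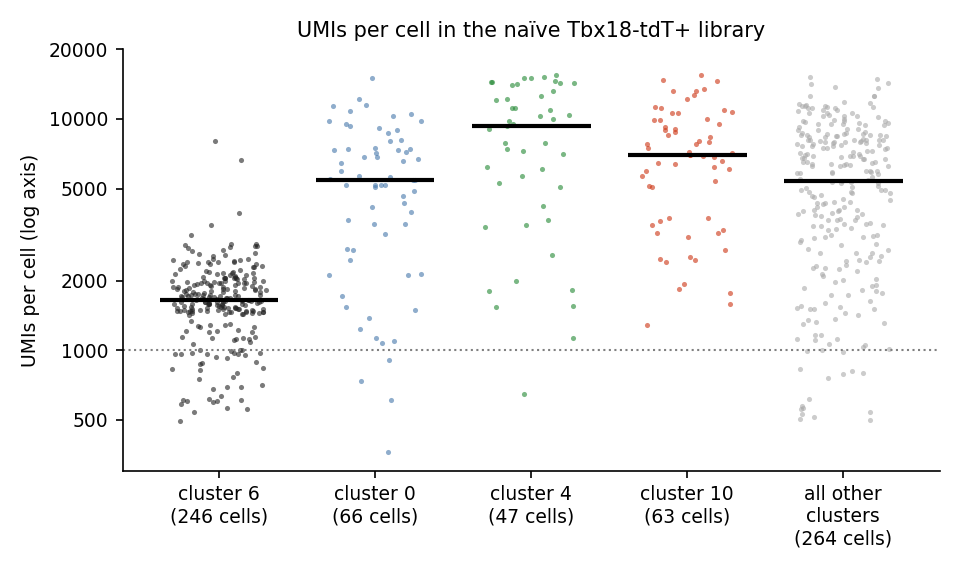
UMIs per cell on a log axis for cluster 6, clusters 0, 4 and 10 and all other clusters of the naïve Tbx18-tdT+ library. Each point is a cell, black bars are medians and the dotted line marks 1000 UMIs; most cells of cluster 6 lie in a narrow band around their median of 1647, below the medians of the other groups.

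Other measures of the cells differed less. The median percent of mitochondrial transcripts, as deposited, was 3.68% in cluster 6 and 2.48%, 5.74% and 2.46% in clusters 0, 4 and 10. For ribosomal protein transcripts it was 7.48%, beside 4.15%, 6.51% and 6.90%. Malat1, a nuclear long noncoding RNA, was the most abundant transcript of cluster 6 outside the mitochondrial genes, at 51651 CPM against 43609, 35681 and 20141 CPM in clusters 0, 4 and 10. Per cell, however, the median percent of Malat1 was 3.30% in cluster 6 (maximum 27.2%), beside 3.75%, 3.08% and 1.77%, so the higher sum was not seen in the median cell when set against cluster 0. When every cell was thinned to 1000 UMIs, the median number of genes per cell was 702 here and 707, 678 and 707 in clusters 0, 4 and 10. At equal depth the cells of cluster 6 thus held about as many genes as the others.

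Genes of the pericyte list followed Vtn. All 15 were found in cluster 6, and their sum was 17978 CPM (17575 to 18388), against 36680, 8017 and 1869 CPM in clusters 0, 4 and 10. Some of them, such as Cspg4, Notch3 and Pdgfrb, are also expressed by smooth muscle. After Vtn the highest were Rgs5, a regulator of G protein signalling, at 3895 CPM and the transport ATPase gene Atp13a5 at 1041 CPM. Higd1b followed at 996 CPM and Ndufa4l2, a gene of a mitochondrial protein, at 925 CPM. In cluster 0 these 4 were at 8503, 3042, 1525 and 1255 CPM. Every one was lower in cluster 6 than in cluster 0. The sum in cluster 6 was 49.0% (47.6% to 50.4%) of that in cluster 0, and the median gene was at 50.6%, with a range from 31.7% for Abcc9, a potassium channel subunit gene, to 81.9% for the amino acid transporter gene Slc38a11. Genes at the ends of such ranges are named for their place there.

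Genes of the smooth muscle list were also all found, 18 of 18, at a sum of 14970 CPM (14602 to 15344) against 3255, 44742 and 1096 CPM in the comparison clusters, in the same order. The highest were the LIM protein gene Crip1 at 3291 CPM, Acta2, the actin-binding transgelin gene Tagln at 2107 CPM, the myosin light chain gene Myl9 at 1919 CPM and the tropomyosin gene Tpm2 at 989 CPM. In cluster 4 the level of Crip1 was 7266 CPM, that of Tagln 7647 CPM, that of Myl9 4226 CPM and that of Tpm2 2741 CPM. The sum in cluster 6 was 33.5% (32.5% to 34.4%) of that in cluster 4, with a median over the genes of 34.9%. The lowest was Map3k7cl at 18.3% (12.2% to 26.7%), and the highest was the calponin gene Cnn1 at 105% (57.7% to 190%), which rests on 26 counts. Contractile genes were thus present together in cluster 6, at fractions of their level in cluster 4 that differed between genes.

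The endothelial list was complete as well. All 20 genes were found, at a sum of 6926 CPM (6677 to 7182) against 934, 209 and 31794 CPM in clusters 0, 4 and 10. Flt1, a receptor gene for VEGF, was the highest at 1041 CPM, followed by Ly6c1, Cldn5, the surface protein gene Ly6a at 552 CPM and the phospholipid transfer protein gene Pltp at 511 CPM. Cluster 10 held Flt1 at 6610 CPM, Ly6a at 1818 CPM and Pltp at 2341 CPM. The sum in cluster 6 was 21.8% (20.9% to 22.7%) of that in cluster 10, with a median of 21.1%, from 13.2% for the VEGF receptor gene Kdr to 47.6% for the receptor kinase gene Tie1. The levels thus fell from the pericyte list, through the smooth muscle list, to the endothelial list, as shares of cluster 0, 4 or 10, respectively.

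**Figure D2:**
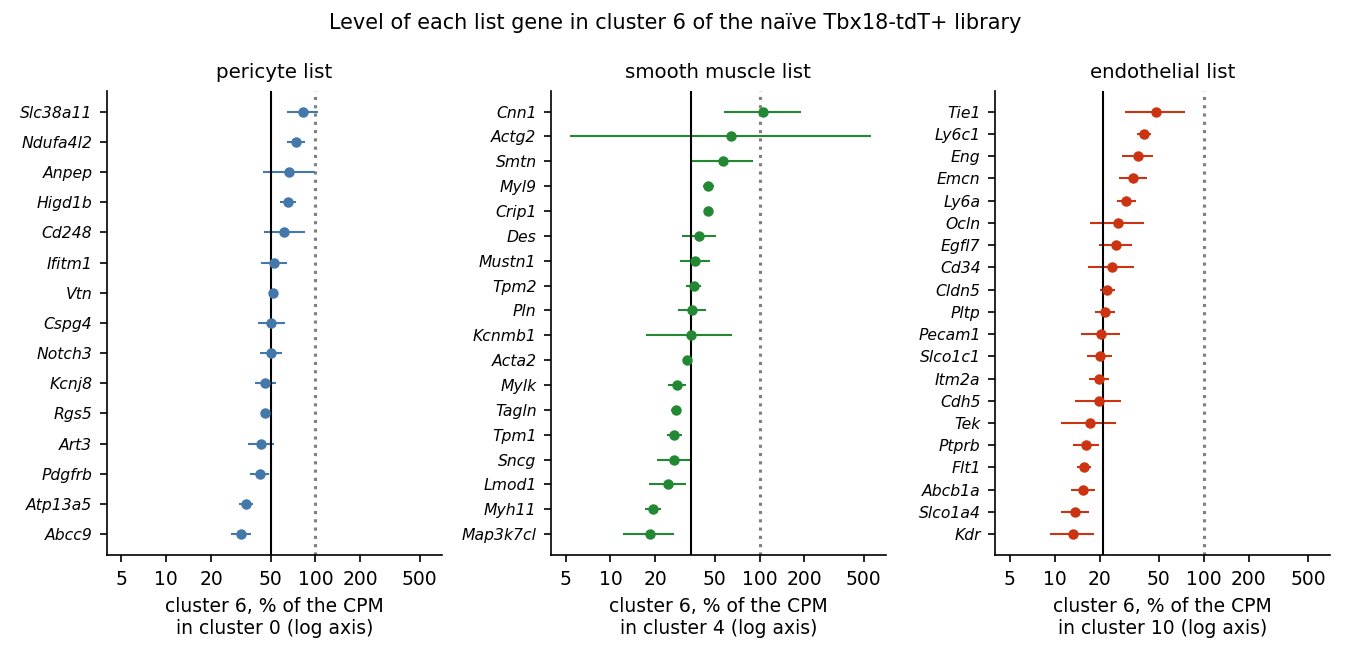
Level of each gene of the pericyte (15), smooth muscle (18) and endothelial (20) lists in cluster 6, as percent of its CPM in cluster 0, 4 or 10, on a log axis. Points are summed counts, bars are 95% exact intervals for counting error, black lines are list medians (50.6%, 34.9% and 21.1%) and the dotted line marks equal levels; all genes but Cnn1 lie below it.

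Across all genes, the same contrasts gave the background for these lists. Of 8742 genes with at least 10 counts in clusters 6 and 0 together, 12.7% were at least 2-fold higher in cluster 6 and 11.7% at least 2-fold lower. Against cluster 4, 18.2% of 8619 genes were higher and 10.0% lower, and against cluster 10, 17.6% of 8993 genes were higher and 17.1% lower. Against cluster 0, 18 of 20 endothelial genes and 12 of 17 smooth muscle genes with enough counts were at least 2-fold higher, with median log2 ratios of 4.58 and 2.72 beside -0.09 over all genes. No pericyte gene was higher and 6 of 15 were lower, among them the channel subunit genes Kcnj8 and Abcc9 and the receptor gene Pdgfrb.

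Against cluster 4, 15 of 17 smooth muscle genes were lower (median log2 ratio -1.50, beside 0.13 over all genes), 9 of 15 pericyte genes were higher (1.96) and 20 of 20 endothelial genes were higher (5.45). Against cluster 10, 20 of 20 endothelial genes were lower (median log2 ratio -2.24, beside -0.02 over all genes), 15 of 15 pericyte genes were higher (4.94) and 16 of 17 smooth muscle genes were higher (4.78). The clusters were formed on such genes, so these counts describe cluster 6 and are no evidence beyond the clustering. Over 5524 genes with at least 10 counts in the 4 clusters together and at least 50 CPM in one of them, 3885 (70.3%) had a level in cluster 6 between the lowest and the highest of the 3 clusters. Another 767 genes (13.9%) were above all 3 and 872 (15.8%) below. The same share was not computed for clusters 0, 4 and 10, so it has no reference here.

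Within the endothelial genes, those of the blood-brain barrier were present as a group. The 13 transporter genes of the list summed to 2297 CPM, beside 327, 367 and 12296 CPM in clusters 0, 4 and 10, and all 13 were at least 2-fold lower than in cluster 10. They included the glucose transporter gene Slc2a1 at 390 CPM, the taurine transporter gene Slc6a6 at 319 CPM and the efflux pump gene Abcb1a at 309 CPM. Of 11 junction genes with enough counts, 8 were at least 2-fold lower than in cluster 10. Tjp1, a scaffold protein of tight junctions, was at 556 CPM, beside 645 CPM in cluster 0 and 1223 CPM in cluster 10. Of 7 capillary genes, 6 were at least 2-fold lower than in cluster 10, such as Spock2 at 333 CPM against 2286 CPM. The exception was the highest of them, the carbonic anhydrase gene Car4, at 616 CPM beside 802, 83.7 and 696 CPM in clusters 0, 4 and 10.

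Arterial endothelial genes summed to 554 CPM in cluster 6 and to 2756 CPM in cluster 13, a group of 19 cells of the same library, and lay between 248 and 303 CPM in clusters 0, 4 and 10. Vegfc, a growth factor gene, was at 73.7 CPM in cluster 6 and 629 CPM in cluster 13. Gkn3 was at 71.3 CPM in cluster 6 and 568 CPM in cluster 13, and clusters 0, 4 and 10 held 2.70, 0 and 13.2 CPM. The most abundant arterial gene was the connexin gene Gja4 at 254 CPM, beside 235, 241 and 4.39 CPM. Against cluster 10, of 8 arterial genes with enough counts 3 were at least 2-fold higher and 3, Bmx, Efnb2 and Hey1, were lower, with a median log2 ratio of 0.01, so the list had no single direction. The endothelial sum of cluster 13 was 27721 CPM. The tip cell and sprouting list summed to 663 CPM, beside 775, 852 and 731 CPM in clusters 0, 4 and 10, and its genes Apln, Esm1 and Plvap had 0 counts in cluster 6. The arterial gene Gja5, the venous gene Ackr1 and the junction gene Cgn also had 0 counts.

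Transcription factor genes of both mural and endothelial cells were present. Ebf1, a mural factor, was at 1393 CPM, between 911 CPM in cluster 10 and 2200 CPM in cluster 0. Foxq1, a factor of brain endothelium, reached 162 CPM, beside 8.10, 2.46 and 501 CPM in clusters 0, 4 and 10, and the endothelial factor Sox17 reached 143 CPM, beside 433 CPM in cluster 10. The PDGF receptor gene Pdgfrb, through which endothelial PDGF-B recruits pericytes, was at 651 CPM, beside 1544 CPM in cluster 0 and 24.2 CPM in cluster 10. The ligand gene Pdgfb was at 95.1 CPM, beside 10.8 CPM in cluster 0 and 307 CPM in cluster 10. Ligand and receptor, which clusters 0 and 10 hold apart, were thus both found in cluster 6.

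Some genes were higher in cluster 6 than in all 3 comparison clusters. Of the 10 genes with the largest ratio to the highest of clusters 0, 4 and 10, Ptgds stood apart in abundance. This gene of prostaglandin D2 synthase, abundant in meningeal cells and oligodendrocytes, lies on chromosome 2 (25466709 to 25470046). Its 1044 counts gave 2482 CPM (2334 to 2638), and 54.9% of the cells held at least 1 of them, while clusters 0, 4 and 10 were at 43.2, 12.3 and 15.4 CPM. Over all other cells of the library it was at 242 CPM, a ratio of 10.3 (9.30 to 11.3), and in the naïve NG2-tdT+ library it was at 1422 CPM. It was found mainly in cells of cluster 6 that another deposited clustering, of the Tbx18 line, placed in its cluster 4. The other 9 genes were Clu, Igfbp2, Hbb-bs, Col1a1, Vegfc, Dcn, Apod, Spp1 and Ccn3. Of these, Clu, Vegfc and Ccn3 were higher in cluster 13 than in cluster 6, with Ccn3 at 701 CPM there and 61.8 CPM here.

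Some of these 9 rested on few cells. Col1a1, a collagen gene, was found in 13 cells, and the 10 cells with the most counts held 88.9% of its 27 counts. Igfbp2 was found in 18 cells, Vegfc in 20 and Ccn3 in 20, and the top 10 cells held 63.6%, 67.7% and 61.5% of their counts. Others were more widely found, the proteoglycan gene Dcn (243 CPM) in 56 cells and the lipocalin gene Apod (661 CPM) in 102. Apod was at 59.4, 0 and 92.2 CPM in clusters 0, 4 and 10, and Spp1, which encodes osteopontin, was at 292 CPM against 43.2, 2.46 and 0 CPM. All 11 fibroblast genes of the list had counts, at a sum of 844 CPM against 605, 273 and 22 CPM in clusters 0, 4 and 10. Of 9 such genes with enough counts, 4 (Col1a1, Dcn, Lum and Pdgfra) were at least 2-fold higher than in cluster 0. Igf2 was at least 2-fold lower. In thinned cells the list did not set cluster 6 apart from cluster 0. It was found in 44.3% of cells of cluster 6 and 45.2% of cluster 0, with means of 0.743 and 0.742 UMIs. Dcn was the most abundant gene of the list and was at 29.7 CPM in cluster 0.

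Globin transcripts were scarce in the rest of the library. The cells of cluster 6 held a UMI of Hbb-bs in 21.5% of cases and the other cells, which were deeper, in 1.36%, and its level was 103 times (48.4 to 262) that of the other cells, at 2.56 CPM. The red blood cell list of 5 genes summed to 409 CPM (350 to 475), beside 13.5, 2.46 and 54.9 CPM in clusters 0, 4 and 10, with Hba-a1 at 61.8 CPM and Hba-a2 at 47.6 CPM. The alpha-globin copies, like the beta-globin pair Hbb-bs and Hbb-bt, are near-identical, so their split is uncertain. In the naïve NG2-tdT+ library Hbb-bs was at 45.9 CPM. The part of red blood cells, or of cells with Ptgds or Dcn, in the other results was not tested.

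Many defining markers of other brain cells were at or near 0, while other genes of the same lists had counts. Of 14 microglia and macrophage genes, Tyrobp, C1qc, Trem2, Tmem119 and Pf4 had no count, and C1qa had 2 counts (4.76 CPM). The astrocyte genes Aqp4, Slc1a2, Aldoc and Gfap and the neuronal genes Snap25, Rbfox3, Gad2 and Camk2a had no count either. Of the other astrocyte genes, Fgfr3, Ntsr2, Cldn10 and Mlc1 were at 0, and Gja1 was the highest at 78.5 CPM. Gja1 was at least 2-fold higher in cluster 6 than in clusters 0 and 4. Slc1a3 was so against clusters 4 and 10, and Clu against clusters 0, 4 and 10. Among the neuronal genes Tubb3 was at 0, and Chn1 was the highest at 140 CPM. Chn1 and Meg3 were at least 2-fold higher in cluster 6 than in clusters 4 and 10, and Nrgn than in cluster 0. Against cluster 0, Chn1 was at least 2-fold lower. The oligodendrocyte genes Mog, Mobp and Ermn were at 0, and the highest gene of that list, Mal, was at 107 CPM beside 345 CPM in cluster 10. Mal and Cldn11 were at least 2-fold higher in cluster 6 than in clusters 0 and 4, and Cldn11 also than in cluster 10. Of the precursor genes Olig1, Olig2, Ptprz1, Neu4 and Gpr17 were at 0, as was the ependymal gene Foxj1. The highest precursor gene, Pdgfra, is also on the fibroblast list. It was at least 2-fold higher in cluster 6 than in clusters 0, 4 and 10. Among 9 cell cycle genes Mki67, Top2a, Birc5, Ccna2, Cdk1 and Cdca8 had no count.

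Immediate early genes, which are induced within minutes by many stimuli including tissue dissociation, were high in cluster 6 and in clusters 0, 4 and 10. Their sum was 37777 CPM, beside 37986, 45212 and 45790 CPM in clusters 0, 4 and 10, with Fos at 7537 CPM and Jun at 5742 CPM in cluster 6. The heat shock genes summed to 9494 CPM, beside 10587, 5709 and 13359 CPM. Neither list set cluster 6 apart from all 3 clusters. The most abundant transcripts outside mitochondrial and ribosomal protein genes were Malat1, Fos, Vtn, Actb, Jun, Ptn, Tmsb4x, Jund, Rgs5 and Junb.

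Genes were also ranked by how far cluster 6 fell below the lowest of clusters 0, 4 and 10. Only genes with at least 50 CPM in each of these 3 clusters could enter. The 10 lowest were Pdpk1, Ing3, Helz, Nemf, Tnpo3, Evi5, Ccdc186, Golgb1, Zic2 and Osbpl8. They are broadly expressed except for the transcription factor gene Zic2. The kinase gene Pdpk1 had 7 counts (16.6 CPM) against 67.5, 86.2 and 52.7 CPM, and the Golgi protein gene Golgb1 was at 80.8 CPM against 165, 219 and 171 CPM. No vascular marker gene was among these 10, but the rule kept out genes near 0 in any of these clusters, such as Cldn5. Their absence is therefore no result.

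Depth was then matched by drawing 1000 UMIs from each cell, which left 210 cells of cluster 6 and 62, 46 and 63 cells of clusters 0, 4 and 10. The 36, 4, 1 and 0 shallower cells were left out. In cluster 6 the median cell had 18 UMIs of the pericyte list (quartiles 14 and 21), 16 of the smooth muscle list (11.3 and 19) and 6 of the endothelial list (4 and 8). The medians of the same lists were 37, 3 and 1 in cluster 0. They were 7, 46 and 0 for cluster 4, and 1, 1 and 31 for cluster 10.

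**Figure D3:**
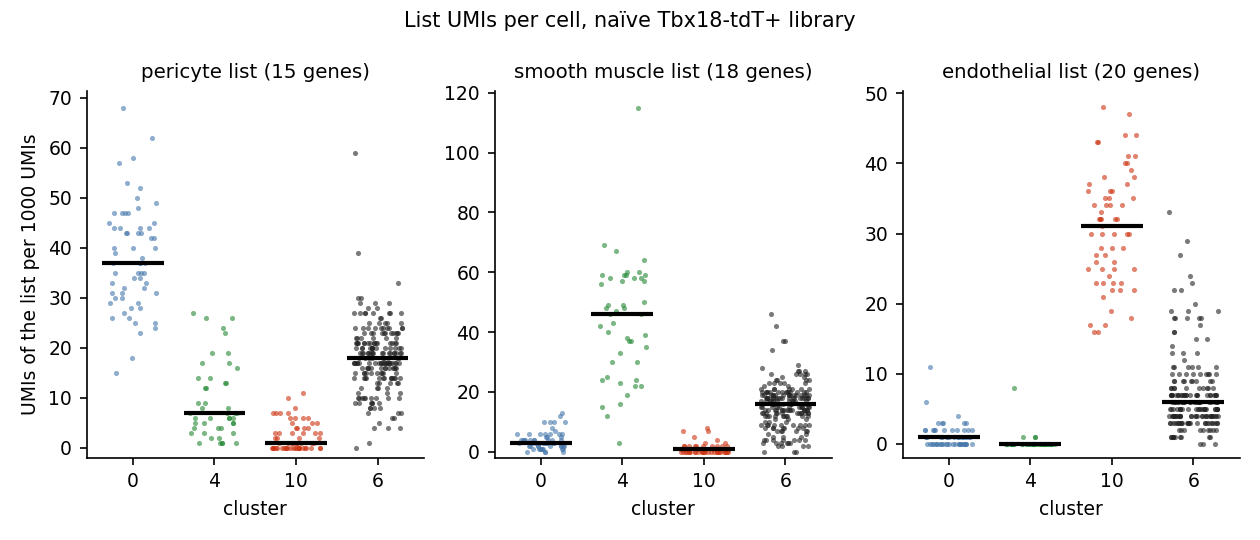
UMIs of the pericyte, smooth muscle and endothelial lists per cell after thinning to 1000 UMIs, in clusters 0, 4, 10 and 6 of the naïve Tbx18-tdT+ library. Points are cells and black bars are medians; cluster 6 has medians of 18, 16 and 6, between the highest and the lowest of the other 3 clusters in each panel.

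Counted per cell, 193 of the 210 cells of cluster 6 (91.9%, 87.4% to 95.2%) had at least 2 UMIs of each of the 3 lists. The same held for 27.4% of cluster 0 (17 of 62 cells), 2.17% of cluster 4 (1 of 46) and 20.6% of cluster 10 (13 of 63). Conversely, 1 list made up at least 80% of the UMIs of the 3 lists in 6 of 210 cells of cluster 6 (2.86%), but in 88.7% of cluster 0 (55 cells), 63% of cluster 4 (29 cells) and 82.5% of cluster 10 (52 cells). Among cells with 1000 to 2500 UMIs before thinning, it did so in 4 of 192 cells of cluster 6 (2.08%), 6 of 12 of cluster 0 and 36 of 74 of all other clusters (48.6%), beside 81.7% of deeper cells of other clusters. UMIs of the 3 lists thus occurred together under single cell barcodes, and barcodes with 1 dominant list were rare in cluster 6. A barcode stands for a droplet, whose UMIs can include free RNA or come from more than 1 cell, and neither was measured.

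Individual cells of cluster 6 leaned to different sides. The pericyte list was the largest of the 3 in 141 cells, the smooth muscle list in 56 and the endothelial list in 13. In the median cell the pericyte list gave 47.2% of the UMIs of the 3 lists, the smooth muscle list 38.5% and the endothelial list 14%. Of the 210 cells, 155 reached the lowest pericyte count of any cell in cluster 0 (15 UMIs), and 19 reached the lowest endothelial count of any cell in cluster 10 (16 UMIs). Smooth muscle counts ranged more widely in cluster 4, from 3 to 115 UMIs with a median of 46, and 106 of the 210 cells (50.5%) reached its 5th percentile of 15.3 UMIs while 1 reached its median. The variance of list UMIs over cells was 2.51 times the mean for the pericyte list, 3.52 times for the smooth muscle list and 4.15 times for the endothelial list. For the pericyte list of cluster 0, the smooth muscle list of cluster 4 and the endothelial list of cluster 10, these ratios were 2.86, 8.92 and 2.09. The ratio can grow with the mean, so it does not rank the clusters for the smooth muscle list, which had a mean of 15.3 UMIs in cluster 6 and 43.6 in cluster 4. For the endothelial list the ratio differed within cluster 6 itself, at 1.88 in its 141 cells that the clustering of the Tbx18 line put in cluster 4 and 4.56 in its 49 cells of line cluster 0.

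**Figure D4:**
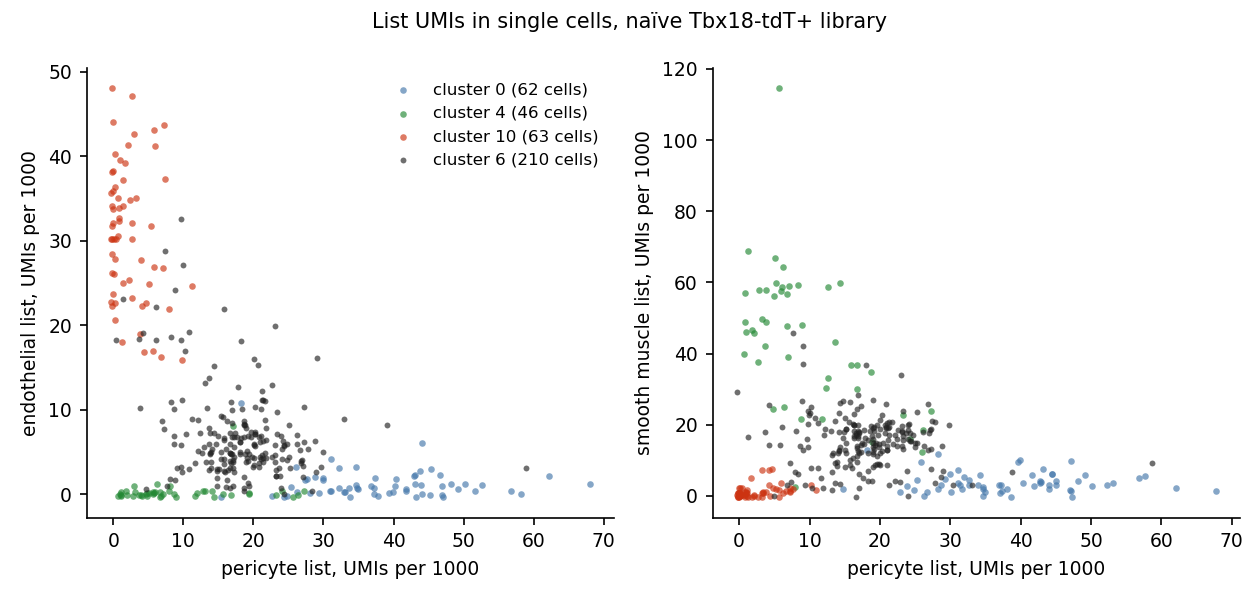
Endothelial (left) and smooth muscle (right) list UMIs against pericyte list UMIs per cell, each cell thinned to 1000 UMIs, with a small random offset to part the points. Most cells of clusters 0 and 10 lie apart from the 210 cells of cluster 6, which form a cloud around 18 pericyte, 16 smooth muscle and 6 endothelial UMIs; some cells of cluster 4 lie inside that cloud in the right panel, and some cells of cluster 6 reach the range of cluster 10 in the left one.

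Inside cluster 6 the pericyte level changed little with depth, while the endothelial level was highest in the shallowest cells. When the cells were ordered by depth and parted into 3 groups of 82, the pericyte sum was 17616 CPM in the shallowest group (496 to 1488 UMIs), 18216 CPM in the middle group and 17975 CPM in the deepest group (1877 to 8007 UMIs), with overlapping intervals. The smooth muscle sums were 12815, 16973 and 14551 CPM, with no single direction. The endothelial sum was 8944 CPM (8331 to 9591) in the shallowest group and 6283 CPM (5869 to 6719) and 6466 CPM (6116 to 6832) in the deeper ones. Depth and subset go together here. Cells from 1000 to 1336 UMIs were mostly in clusters 0 and 3 of the Tbx18 line, and deeper ones mostly in its cluster 4. Among the cells over 2500 UMIs, however, line cluster 0 was the most frequent. The endothelial medians after thinning were 9, 5.5 and 5 UMIs in line clusters 0, 3 and 4. The part of these subsets in the depth pattern was not tested.

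Detection of single genes gave the same picture at matched depth. For cluster 6 the share of cells with a UMI was 98.1% for Vtn, for Acta2 87.1% (81.8% to 91.4%) and for Cldn5 51.9% (44.9% to 58.8%). In cluster 0, which should lack Cldn5 and Acta2, the shares were 6.45% and 8.06%, and in cluster 4, which should lack Cldn5, that share was 2.17%. For cluster 10, which should lack Vtn and Acta2, they were 23.8% and 6.35%. The shares of Cldn5 and Acta2 thus exceeded those of clusters that should lack the gene, while the median depth before thinning was lower (1647 UMIs against 5462, 9362 and 6996). The difference was smaller among cells of like original depth. In the 12 cells of cluster 0 that had 1000 to 2500 UMIs, Cldn5 was found in 33.3% (9.92% to 65.1%) and Acta2 in 41.7% (15.2% to 72.3%), beside 53.1% (45.8% to 60.3%) and 88% (82.6% to 92.3%) of 192 such cells of cluster 6. These shares rest on 12 cells of cluster 0 and are given as a description. Before thinning, the shares in cluster 6 were 97.6% for Vtn, 83.7% for Acta2 and 65.4% for Cldn5, and in cluster 0 they were 19.7% for Acta2 and 10.6% for Cldn5. Ly6c1 was found in 105 of the 210 thinned cells, beside 1.61%, 2.17% and 85.7% of clusters 0, 4 and 10, and Hbb-bs in 16.7% (11.9% to 22.4%), beside 1.61% of cluster 0.

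All 3 of Vtn, Cldn5 and Acta2 were found together in 93 of 210 cells of cluster 6 (44.3%, 37.5% to 51.3%). The share was 3.23% (0.393% to 11.2%) for cluster 0, with 2 cells, 2.17% (0.0550% to 11.5%) for cluster 4, with 1 cell, and 4.76% (0.993% to 13.3%) for cluster 10, with 3 cells. Before thinning the shares were 53.3%, 4.55%, 6.38% and 14.3%. The share of cluster 6 depended on depth, at 16.7% when cells were thinned to 500 UMIs and 54.9% at 1500 UMIs. In the naïve NG2-tdT+ library, 6 of 4236 cells held all 3 genes (0.142%, 0.0520% to 0.308%).

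Cells of other clusters with the depth of cluster 6 were the closest to it. Of 74 such cells with 1000 to 2500 UMIs, 7 held all 3 genes (9.46%, 3.89% to 18.5%), against 4 of 345 cells with more than 2500 UMIs (1.16%, 0.317% to 2.94%), all thinned to 1000 UMIs. In the same depth range, 86 of 192 cells of cluster 6 held all 3 (44.8%), and so did 2 of 12 cells of cluster 0 (16.7%) and 1 of 527 NG2-tdT+ cells (0.190%). At least 2 UMIs of each list were found in 31 of the 74 shallow cells of other clusters (41.9%, 30.5% to 53.9%) and in 44 of the 345 deeper ones (12.8%, 9.42% to 16.7%). Mixed lists were therefore more frequent among shallow than among deep cells outside cluster 6 as well, although less frequent than within it.

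**Figure D5:**
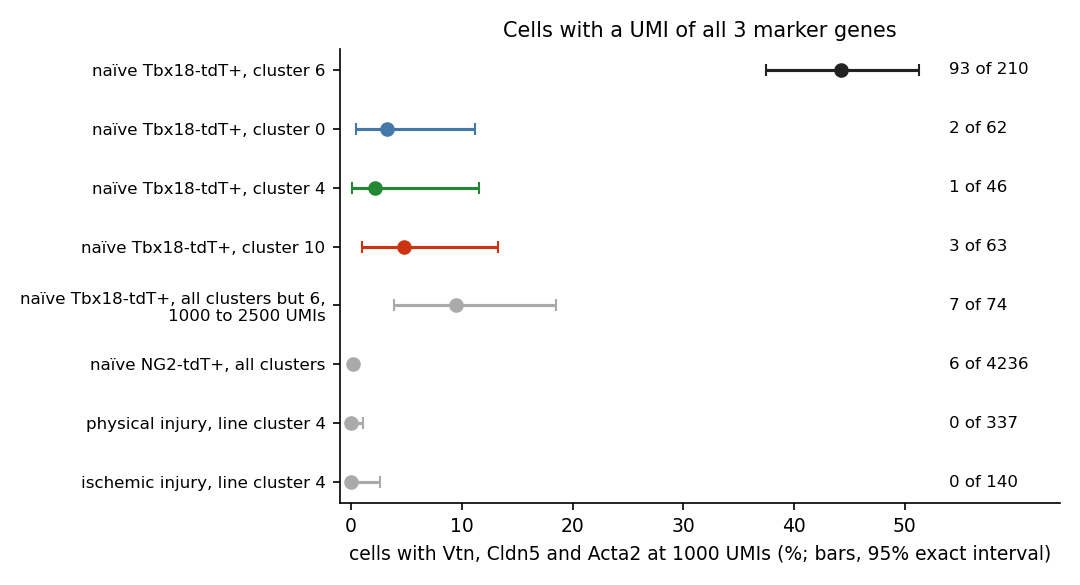
Percent of cells with at least 1 UMI of each of Vtn, Cldn5 and Acta2 after thinning to 1000 UMIs, with 95% exact intervals and the number of cells, for cluster 6, the comparison clusters, shallow cells of all other clusters, the naïve NG2-tdT+ library and cluster 4 of the Tbx18 line in both injured libraries. Cluster 6 stands at 44.3% and every other group below 10%.

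The summed profile of cluster 6 was nearer to the rest of its library than to any single comparison cluster. Across 12108 genes, the Pearson correlation of log2(CPM + 1) with the sum of all other cells of the library was 0.912. It was 0.713, 0.700 and 0.594 with clusters 0, 4 and 10, over the 8742, 8619 and 8993 genes with at least 10 counts. The rest of the library has more UMIs than these clusters, but with all profiles drawn down to the same total the order was kept, at 0.872, 0.705, 0.690 and 0.564. Clusters 0, 4 and 10, each set against all cells outside it, gave 0.828, 0.770 and 0.701. These correlations are across genes, which are not independent replicates, and they describe the profiles only.

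Against all other cells of the library, the pericyte and endothelial lists of cluster 6 were nearer to parity than the smooth muscle list, which was higher. The pericyte sum was 79.3% (77.4% to 81.2%), the smooth muscle sum 158% (153% to 162%) and the endothelial sum 91.3% (87.8% to 95%) of the level in those 440 cells. Vtn stood at 0.955 times and Cldn5 at 1.08 times (0.961 to 1.20) their level there, and Acta2 at 1.97 times (1.85 to 2.10). A mixture of transcripts close to that of the library as a whole, with more smooth muscle transcripts, was thus measured in the cells of cluster 6. The parts of free RNA, which droplets can take up from the suspension, and of more than 1 cell in a droplet were not tested for the mixture in cluster 6. Neither can be told apart here from transcripts made by the cells.

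The same 246 cells carry a second deposited number from the clustering of the Tbx18 line, in which the naïve library was joined with both injured ones. There, 145 of them (58.9%) were in cluster 4 and 68 (27.6%) in cluster 0, and the remaining 33 were spread over 4 other clusters. The 145 cells were 92.4% of the 157 naïve cells in that cluster 4. At 1000 UMIs, the cells of cluster 6 that fell in line cluster 4 (141 cells) had medians of 19 pericyte, 17 smooth muscle and 5 endothelial UMIs. Those in line cluster 0 (49 cells) had medians of 14, 14 and 9. A UMI of a red blood cell gene was found in 31.2% of the former and in 4.08% of the latter. Ptgds was found in 117 of the 141 cells in line cluster 4 (83%, 75.7% to 88.8%) and in 2 of the 49 cells in line cluster 0 (4.08%, 0.498% to 14%), and Dcn in 21.3% and 4.08%. Both of these subsets held all 3 lists, with more endothelial UMIs and fewer of globin, Ptgds and Dcn in line cluster 0, so the high level of Ptgds does not hold for cluster 6 as a whole. Nor does the 3-way mixture hold for every subset. In the 20 cells that fell in line cluster 3, of which 10 had enough UMIs, the medians were 20 pericyte, 2.5 smooth muscle and 5.5 endothelial UMIs, with 0 to 5 of the smooth muscle list, and Acta2 was found in 1 of these 10.

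In the injured libraries, cluster 4 of the Tbx18 line held deeper cells with little Vtn. Physical injury gave 349 and ischemic injury 143 of its cells, with medians of 6756 and 8461 UMIs, against 1724 UMIs for its 157 naïve cells. The level of Vtn was 7549 CPM in the naïve cells and 37.7 and 9.98 CPM in the cells of both injuries. Cldn5 was at 656, 58.9 and 69.9 CPM and Acta2 at 3512, 1549 and 1738 CPM in the same order. Clu went the other way, at 85.8, 337 and 250 CPM, and Ptgds was at 3498, 2073 and 1380 CPM. Vtn, Cldn5 and Acta2 together were found in 0 of 337 and 0 of 140 thinned cells of this cluster in the injured libraries (upper limits 1.09% and 2.60%), and in 12 of 3359 and 2 of 1874 cells of their other clusters. Of the thinned naïve cells of line cluster 4, 54 of 152 held all 3 (35.5%, 27.9% to 43.7%). These intervals do not cover the random draw of UMIs. Across genes, the correlation with cluster 6 was 0.631 for the cells of physical injury and 0.482 for those of ischemic injury. The naïve cells of line cluster 4 are nearly all cells of cluster 6 and give no separate reference for these values. With 1 library per condition, injury, the animals and the preparation of the library cannot be told apart.

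The number 6 was also given to 29 cells of the naïve NG2-tdT+ library, which were unlike those of the Tbx18-tdT+ library. C1qa, a complement gene of microglia, was at 3124 CPM in them and at 4.76 CPM in the 246 cells, and Cldn5 had 0 counts. In the clustering of the NG2 line, 17 of these 29 cells were in cluster 9. The naïve libraries have 0 cell barcodes in common, and 1 of the 246 barcodes also occurs in another library, that of physical injury of the NG2 line.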

How the data were processed

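Cortical cells were measured by single-cell RNA sequencing (10x Genomics 3' v3). The authors deposited UMI counts per gene and cell, made with Cell Ranger 7.0.0 (submitters' processing notes, genome GRCm38/mm10), cluster numbers from Seurat after SCTransform and CCA integration, and the percent of mitochondrial and ribosomal transcripts per cell. The naïve table holds 19679 genes and 4992 cells, 686 of them Tbx18-tdT+ (3153996 UMIs, median 2806 per cell, 364 to 15459). The naïve clusters run from 0 to 13 and carry no deposited names, so they are called by number. All deposited cells were kept, since applying the filters of the methods again would leave 652 cells and all 246 of cluster 6. No doublet caller was run, and the sources used here state no treatment of doublets.

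Counts were summed per cluster and divided by the cluster total (CPM), with exact Poisson intervals; ratios and shares have exact binomial (Clopper-Pearson) intervals at 95%. Log2 ratios used a pseudocount of 1 CPM and genes with at least 10 counts in both clusters together, and a 2-fold difference was counted. Where a count is 0, up to 3 counts (7.13 CPM in cluster 6) are allowed by counting error. This is a 1-sided 95% limit, lower than the upper end of the 2-sided exact intervals. Cells were compared after random thinning to 1000 UMIs, leaving out shallower ones. TMM factors came from edgeR 4.0.16 (R 4.3.3), and all else from Python 3.11.15 with scipy 1.17.1, numpy 2.4.6, pandas 2.3.3 and matplotlib 3.10.9. The scripts were tested on simulated data.

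The cells, the 23 gene lists and the settings were chosen with earlier results of these data known. Genes were named by rule: the 6 markers and the drivers Tbx18 and Cspg4, of each list up to 5 genes with the highest CPM in cluster 6 and those at 0, the 10 genes with the largest ratio to the highest of clusters 0, 4 and 10 (at least 50 CPM), the 10 with the lowest ratio to the lowest of them, and the 10 most abundant. The genes with the lowest ratio needed at least 50 CPM in each of clusters 0, 4 and 10. Genes at the ends of a list's range, Kcnj8, C1qa, Bmx, Efnb2, Hey1, Slc1a3, Cldn11, Lum, Pdgfra and Igf2 were chosen after their values were seen. Alternatives were TMM factors, means of per-cell CPM, other thinning depths, count minimums and pseudocounts, other cell filters and pooled comparison clusters. All columns were matched to a sample, and 0 were left over. The level of 1 listed gene, and the sum of the list that holds it, are not reported here.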

Additional observations from a re-analysis of the deposited data

How the results depend on the processing

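No paired analysis was possible because each group has 1 library and no test was made. Of 112 alternative values for the comparisons, 65 stayed within their interval (or 1.5 times, for gene counts) and 47 moved. Of 397 for single genes and other lists, 317 stayed and 80 moved. Direction was checked only for log2 ratios and correlations, of which 0 reversed. The intervals were of counting error, except for correlations (across genes) and the variance over the mean (approximate, across cells). Neither genes nor cells are replicates. Matching depth to 1000 to 2500 UMIs and leaving out the cells of cluster 6 in cluster 0 of the Tbx18 line (for shares and for lists) were chosen after seeing the data. The share of cells with Vtn, Cldn5 and Acta2 depends on depth: in cluster 6 it was 16.7% at 500 UMIs and 54.9% at 1500 UMIs. At 500 UMIs it was 0% in cluster 10, and among cells with 1000 to 2500 UMIs it was 16.7% in cluster 0 (2 of 12 cells) and 0% in clusters 4 and 10 (6 and 8 cells). With TMM factors, the pericyte level was 53.9% of cluster 0, the smooth muscle level 31.7% of cluster 4, and the smooth muscle log2 ratio to cluster 0 2.34. With means of per-cell CPM, the endothelial level was 24.0% of cluster 10, and the log2 ratios were 3.02 (pericyte, to cluster 10), 1.86 (smooth muscle, to cluster 0) and 2.64 (endothelial, to cluster 0). The pericyte log2 ratio to cluster 10 was 3.13 with the methods' filters and 3.11 without the deepest 10% of cells, beside 3.27. With clusters 0, 1, 2, 3, 5 and 8 pooled, the smooth muscle log2 ratio was 1.82, beside 2.20. Without the cells in line cluster 0, the levels were 51.7%, 34.5% and 16.4% (endothelial), and the endothelial log2 ratio to cluster 0 was 2.48, beside 2.89. The endothelial level was 20.9% in cells of at least 1000 UMIs. The variance over the mean at 500 UMIs was 2.82 for smooth muscle and 3.02 for endothelial UMIs.

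Counts of genes past 2-fold also moved. With at least 30 counts they were 444 higher and 462 lower (cluster 0), 568 and 461 (cluster 4) and 738 and 935 (cluster 10), beside 1109 and 1024, 1568 and 864, and 1585 and 1539. With no minimum they were 3462 and 2313, 4104 and 1958, and 3848 and 2863. With a pseudocount of 10 CPM, 596 were lower than in cluster 0 and 1027 higher than in cluster 4. The correlations with clusters 0, 4, 10 and the rest of the library were 0.789, 0.786, 0.742 and 0.923 with no minimum, and 0.697, 0.677, 0.564 and 0.908 without mitochondrial, ribosomal protein and hemoglobin genes. At equal totals they were 0.564 for cluster 10 and 0.872 for the rest. The causes of these shifts were not tested, except that the count minimum sets the number of genes. With 1 library, variation between animals is unknown, and genes under about 3 counts in cluster 6 could not be told from 0.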
